A study of Homo sapiens with 4 samples.

Results

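AVEN overexpression in HCT116 was measured by setting HCT116 cells that overexpress AVEN (OE) against HCT116 cells labelled wildtype for AVEN (WT). The genes compared were those annotated as protein-coding with a mean of at least 1 FPKM over the OE and WT libraries, which held for 10061 of the 60612 genes listed and of the 19673 protein-coding genes among them. FPKM counts sequenced fragments per kilobase of transcript, scaled to the fragments mapped in each library. Poly(A) RNA was sequenced as paired ends, and the series holds 4 libraries in 4 groups: HCT116 OE, HCT116 WT, RKO OE and RKO WT, with 1 library each. HCT116 and RKO are established human colorectal cancer cell lines. The labels give each sample's line and its AVEN genotype; the construct, the number of clones, an empty-vector control and the culture conditions are not given in the sources used here.

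No difference between these libraries has a replicate check, so no p-value was computed, and the words higher and lower speak of these libraries alone. Differences are log2((OE + 1)/(WT + 1)) of FPKM values, which understates the change of low genes, and a positive value means higher in OE. Intervals in brackets are 95% counting intervals of the plain ratio from estimated fragments (OE to WT, or WT to OE beside a gene given as lower), and they cover counting error only. On a transcript of 1 kilobase, 1 FPKM stood for about 20.8 fragments in OE and 18.6 in WT, and a count of 0 allows up to 0.145 and 0.161 FPKM. Mitochondrial genes took 45.6% of the summed FPKM in OE and 44.7% in WT. These are bulk samples, in which fewer cells of a type and less RNA per cell cannot be told apart. Just inside the limit of 1 FPKM stood ATP6AP1L, at a mean of 1.0004 FPKM, and just outside it HERC6, at 0.999. A total of 211 genes reached 1 FPKM in OE only and 103 in WT only. The filter favours a difference for such genes.

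The libraries carried the epithelial markers that the line's label calls for, in part. Of 21 markers of colorectal epithelium, 11 reached 1 FPKM in OE and 11 did in WT, with summed levels of 1037 FPKM in OE against 1081 in WT. KRT19, a keratin of simple epithelia, stood at 381 FPKM in OE against 380 in WT. The colonic genes CDX1, CDH17, CEACAM5 and FABP1 were listed at 0.0001 FPKM in both, the floor of the values. Of 17 markers of fibroblasts, endothelium and blood, 2 reached 1 FPKM in each library, and their summed levels were 4.89 FPKM in OE against 4.99 in WT. COL1A1, a fibroblast collagen, was the highest of them at 2.60 FPKM in OE against 2.59 in WT. PTPRC, CD3E, CDH5 and HBB were listed at that floor in both.

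AVEN encodes a largely cytosolic protein that restrains the mitochondrial route to apoptosis. It binds the survival protein BCL-xL and the apoptosome scaffold APAF1, which otherwise activates caspase-9, and it takes part in ATM signalling after DNA damage. AVEN has further been described as an RNA-binding protein that works with the helicase DHX36 and the methyltransferase PRMT1 in the translation of selected mRNAs, KMT2A among them.

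AVEN itself had 2.96 FPKM in OE against 1.53 in WT. The OE library was 1.94-fold higher (1.15 to 3.36), on about 47.9 estimated fragments against 22.2. The gene, ENSG00000169857, shares no exon with a neighbour and spans chr15:33866227-34039176 on the minus strand (GRCh38, GENCODE). Its log2 difference of 0.65 ranked 233 among the 10061 genes, counted from the highest, so the gene under study was not among those that differed most. The authors' deposited table gave AVEN a q-value of 1.

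Across the 10061 genes, 161 showed a gap of 2-fold or more in log2(FPKM + 1), or 1.6% of those compared. Of these, 85 were higher in OE (0.845%) and 76 were lower (0.755%). At least a 1.5-fold difference was seen for 545 genes (5.42%), 290 higher (2.88%) and 255 lower (2.53%). The differences ran close to even in both directions: 5201 genes (51.7%) were above 0 and 4860 (48.3%) below it, with a median of 0.01 and a middle range, from the lower to the upper quartile, of -0.14 to 0.16. Among the genes at least 2-fold apart, 28 reached 1 FPKM in OE only and 19 in WT only. A q-value under 0.05 in the authors' deposited table was given to 17 of the 10061 genes (0.169%), 8 higher in OE (0.0795%) and 9 lower (0.0895%). Genes that are not protein-coding were outside the comparison; of 1272 with a mean of 1 FPKM or more, 71 were at least 2-fold apart (5.58%), 31 higher in OE (2.44%) and 40 lower (3.14%).

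**Figure D1:**
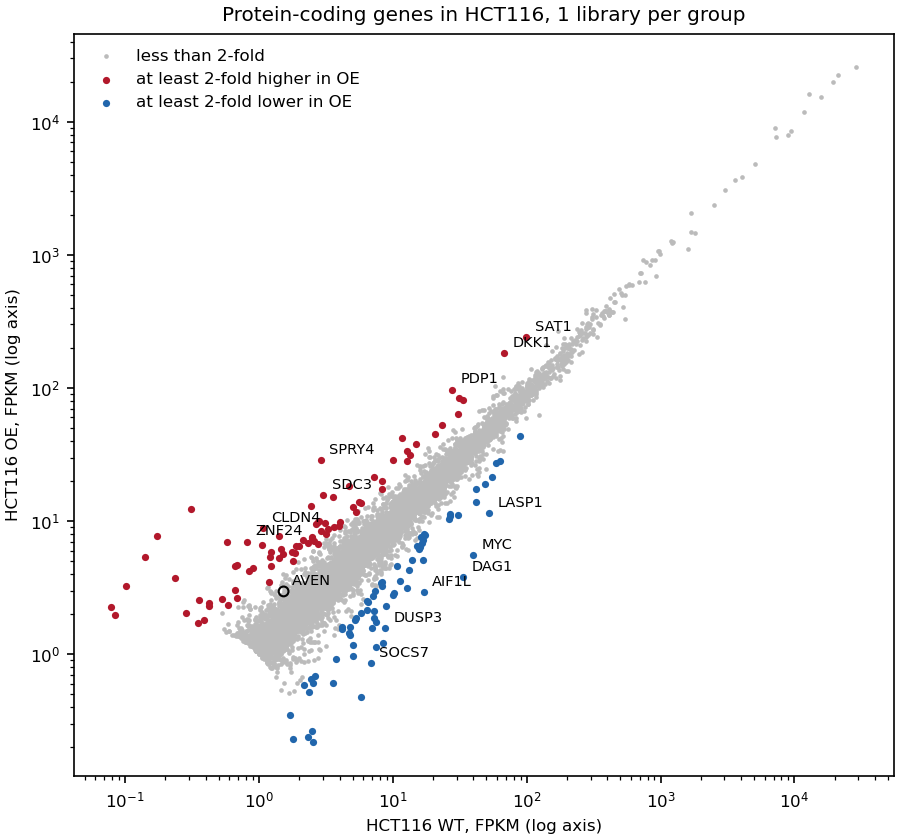
FPKM of genes among the 10061 compared, in the HCT116 OE library (vertical, log axis) against the HCT116 WT library (horizontal, log axis). Genes at least 2-fold higher in OE are in red and those at least 2-fold lower in blue. Y-linked genes and genes with almost no signal in OE or in WT, TNFRSF6B and CDC42EP2 among them, are not drawn. Fewer than the 85 higher and 76 lower genes are therefore shown. AVEN, circled, lies at 2.96 FPKM in OE against 1.53 in WT, close to the cloud of genes that differed by less.

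The named signalling genes included inhibitors of receptor signalling and did not share a direction. SPRY4, a feedback inhibitor of receptor tyrosine kinases, stood at 28.5 FPKM in OE against 2.89 in WT, 9.87-fold higher in OE (8.24 to 11.9). CAB39, a scaffold that activates the kinase LKB1, had 10.0 FPKM in OE against 2.79 in WT, 3.60-fold higher (2.79 to 4.69). Lower in OE were SOCS7, a suppressor of cytokine signalling, at 0.859 FPKM in OE against 6.87 in WT, 8.0-fold lower (6.01 to 10.8), and DUSP3, a phosphatase that acts on ERK and JNK, at 1.57 FPKM in OE against 8.79 in WT, 5.58-fold lower (4.34 to 7.26). FGFRL1, a receptor of the fibroblast growth factor family that lacks a kinase domain, stood at 13.8 FPKM in OE against 41.5 in WT. Its level in OE was 3.01-fold lower (2.71 to 3.34).

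Transcription factors formed the next group. MYC, which drives growth and ribosome synthesis, had 5.57 FPKM in OE against 39.6 in WT. That is 7.10-fold lower in OE (6.02 to 8.42), on about 164 fragments against 1047. CXXC5, a CpG-binding protein that restrains WNT signalling, stood at 15.2 FPKM in OE against 3.57 in WT, 4.27-fold higher (3.18 to 5.82). ZNF24, a zinc-finger repressor, had 7.01 FPKM in OE against 0.808 in WT, 8.68-fold higher (6.57 to 11.7). TGIF2, a repressor of TGF-beta target genes, stood at 4.56 FPKM in OE against 0.658 in WT, and it shares exons with a readthrough gene. The zinc-finger genes ZNF664 and ZNF395 were each lower, at 3.13 FPKM in OE against 12.7 in WT and at 2.78 in OE against 10.1 in WT, and both share exons with another gene. ZNF621 was at 0.229 FPKM in OE against 1.80 in WT, so it passed the filter through WT alone.

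At the cell surface the widest gap was in the gene of dystroglycan. DAG1 encodes dystroglycan, a receptor that ties laminin in the basement membrane to the cytoskeleton, and it had 3.79 FPKM in OE against 33.6 in WT. It was 8.86-fold lower in OE (7.49 to 10.6), and its log2((OE + 1)/(WT + 1)) of -2.85 was the lowest among genes without a shared exon. On the plain ratio, some genes of lower level stood farther apart. POMK, the kinase that phosphorylates a mannose on dystroglycan so that the laminin-binding sugar chain can be built, was at 0.239 FPKM in OE against 2.32 in WT, which rests on about 6.54 fragments against 57.0, so it passed the filter through WT alone. CHST14, a sulfotransferase of dermatan sulfate, stood at 1.21 FPKM in OE against 8.46 in WT, 7.00-fold lower (5.43 to 9.16). In the other direction, the heparan sulfate proteoglycan gene SDC3 had 15.7 FPKM in OE against 3.03 in WT, 5.18-fold higher (4.28 to 6.31). CLDN4, a claudin of tight junctions, stood at 8.88 FPKM in OE against 1.07 in WT, 8.34-fold higher (6.12 to 11.6).

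A set of 3 genes at the low end of the comparison act on actin filaments, while the actin and adhesion list as a whole had 25 of 55 above 0 and 30 below. LASP1, an actin-binding protein of focal adhesions, had 11.4 FPKM in OE against 52.2 in WT, 4.57-fold lower (4.14 to 5.05). AIF1L, which bundles actin, stood at 2.91 FPKM in OE against 17.0 in WT, 5.86-fold lower. CFL2, a cofilin that severs actin filaments, had 2.31 FPKM in OE against 8.88 in WT, 3.84-fold lower (3.10 to 4.80). At the high end, SEPTIN11, a GTPase of septin filaments, stood at 9.43 FPKM in OE against 2.67 in WT. CAPN6, a calpain without protease activity that stabilises microtubules, had 6.90 FPKM in OE against 0.578 in WT, and so was 11.9-fold higher (8.597 to 17.0).

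Membrane traffic and metabolism gave further members at both ends. GABARAPL1, an ATG8 protein that coats autophagosomes, stood at 13.0 FPKM in OE against 2.47 in WT, 5.26-fold higher (3.89 to 7.24). RAB6A, a GTPase of Golgi transport, had 18.3 FPKM in OE against 4.71 in WT, 3.88-fold higher (3.17 to 4.78). PDP1, the phosphatase that switches pyruvate dehydrogenase on, stood at 97.2 FPKM in OE against 27.7 in WT. It was 3.51-fold higher (3.26 to 3.78). Transporters were lower: SLC39A9, a zinc importer, stood at 2.88 FPKM in OE against 10.2 in WT, and SLC9A3, the sodium-proton exchanger NHE3 of gut epithelium, at 0.218 FPKM in OE against 2.53 in WT. SLC9A3 shares exons with a neighbour, and the log2 value was -1.54 by itself and -1.05 once that gene was added.

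The remaining genes chosen by size or by the authors' q-value span several functions. DCP2, the enzyme that removes the cap of mRNAs before decay, stood at 2.02 FPKM in OE against 0.286 in WT. MRPL49, a protein of the mitochondrial ribosome, stood at 42.3 FPKM in OE against 11.8 in WT, and KIAA0040 at 21.6 FPKM in OE against 7.22 in WT. These 3 were higher in OE. DEDD2, which carries a death effector domain and is linked to apoptosis in the nucleus, had 5.11 FPKM in OE against 16.8 in WT. FBXO41, an F-box protein, stood at 1.13 FPKM in OE against 7.51 in WT, and ZSWIM9 at 0.479 FPKM in OE against 5.76 in WT. ZSWIM9 was 12.02-fold lower in OE (7.64 to 19.9). Of the genes named so far, SOCS7, SLC9A3 and ZSWIM9 reached 1 FPKM in WT alone, beside ZNF621 and POMK. ZNF24, TGIF2, CAPN6 and DCP2 reached it in OE alone. The filter favours a difference for all of these. A q-value under 0.05 in the authors' deposited table went to SPRY4, ZNF24, TGIF2, CLDN4, CAPN6 and DCP2 among the higher genes. Among the lower it went to MYC, SOCS7, ZNF621, DAG1, POMK, CHST14, SLC9A3, FBXO41 and ZSWIM9. APOLD1 and AC004922, described next, had one too. The others described so far at either end did not, such as PDP1 (0.923), RAB6A (0.679) and LASP1 (0.281).

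Some of the largest differences belong to genes whose exons are also exons of another gene, where the split of fragments between them is uncertain. TNFRSF6B, a decoy receptor for FAS ligand, was listed at 32.9 FPKM in OE against 0.0034 in WT, and the log2 value was 5.08 by itself and 1.48 once the readthrough gene RTEL1-TNFRSF6B was added. CDC42EP2, an effector of the GTPase CDC42, was listed at 0.0001 FPKM in OE, the floor of the table, and at 11.3 in WT. Its difference was -3.61 alone and 0.11 with the overlapping gene added, so the sign turned. APOLD1, an endothelial early response gene, stood at 3.72 FPKM in OE against 0.238 in WT, with 1.93 alone and 0.06 with DDX47 added. AC004922, a readthrough over the actin-nucleating ARPC1A and ARPC1B, had 12.4 FPKM in OE against 0.313 in WT, with 3.35 alone and 0.04 with both added. Sharing exons was commoner among the genes that differed than among the rest: it held for 26 of the 85 higher genes (30.6%) and 22 of the 76 lower ones (28.9%), against 1583 of all 10061 (15.7%).

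**Figure D2:**
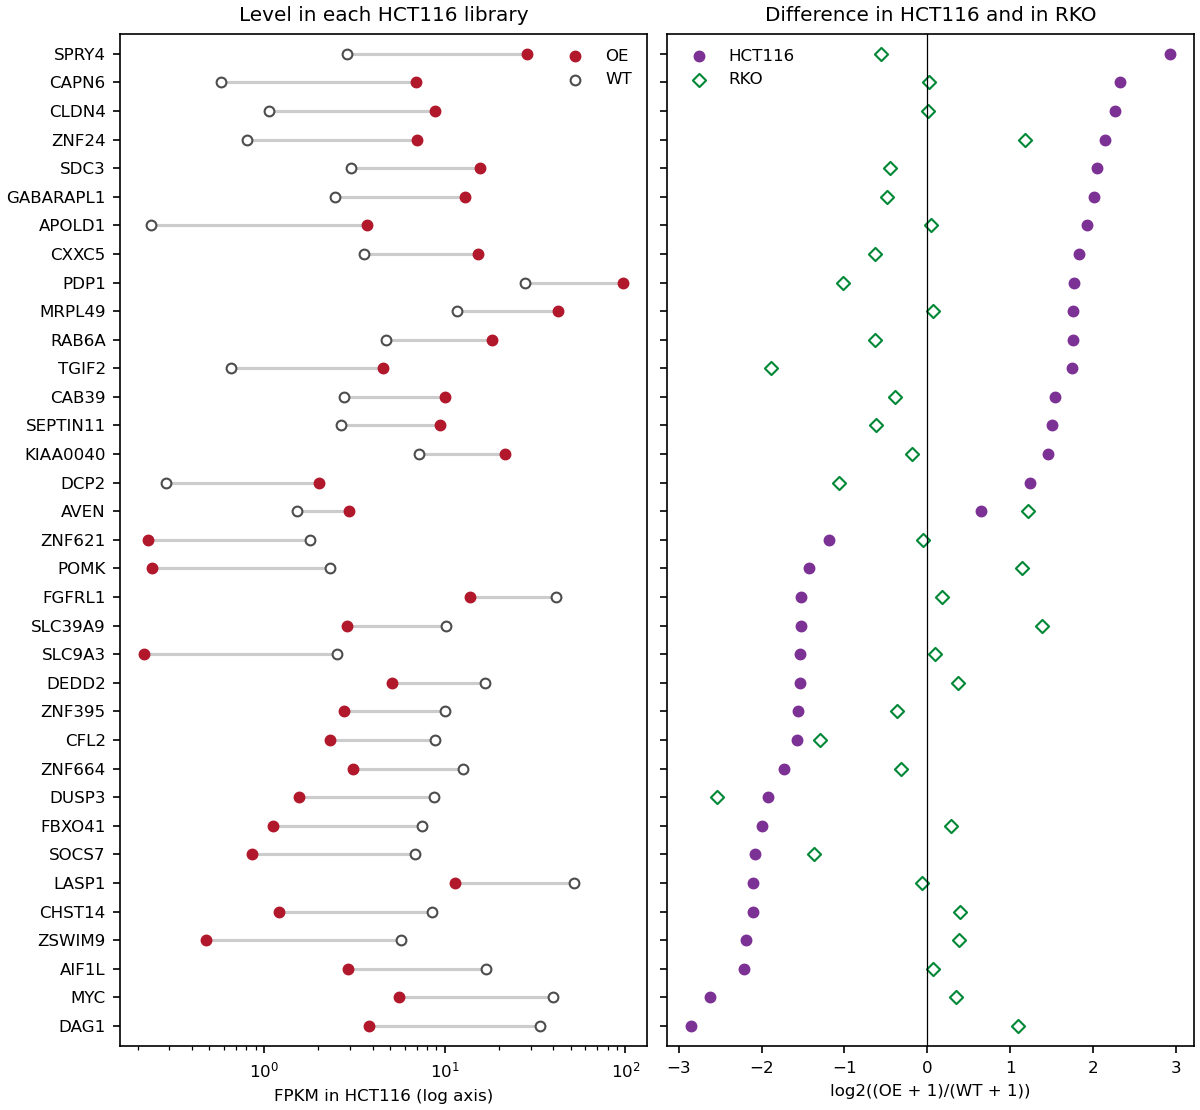
Left, FPKM (log axis) in the HCT116 OE library (filled) and the HCT116 WT library (open) for named genes at either end of the comparison, joined by a line per gene; TNFRSF6B, CDC42EP2 and AC004922, whose values hang on shared exons, are not drawn. Right, the log2((OE + 1)/(WT + 1)) difference in HCT116 (circles) beside that in RKO (diamonds); of the genes drawn SPRY4 stands highest in HCT116 at 2.92 and DAG1 lowest at -2.85, and ZNF24, DUSP3, SOCS7 and CFL2 are past 1 or -1 in the same direction in RKO.

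The most abundant mRNAs differed little between the libraries. TMSB10, an actin-sequestering thymosin, was the highest nuclear gene at 3668 FPKM in OE against 3616 in WT, and HMGA1, an architectural chromatin protein, stood at 1244 FPKM in OE against 1234 in WT. GAPDH, of glycolysis, stood at 2390 FPKM in OE against 2501 in WT. The elongation factor gene EEF1A1 was higher, at 2055 FPKM in OE against 1678 in WT. RPS2, of the small ribosomal subunit, was lower, at 1464 FPKM in OE against 1818 in WT. The chaperone gene HSP90AB1 had 1495 FPKM in OE against 1675 in WT. FTL, the ferritin light chain that stores iron, showed the widest gap of the 10 most abundant, at 1107 FPKM in OE against 1614 in WT, 1.46-fold lower (1.43 to 1.49). RPS12, RPL8 and RPS18 had log2 differences of 0.07, -0.01 and 0.15.

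Of the genes that act with AVEN, the binding partner BCL-xL showed the widest gap. BCL2L1, which encodes BCL-xL, stood at 24.6 FPKM in OE against 49.8 in WT, 2.03-fold lower (1.85 to 2.23). CTSD, the protease reported to process AVEN, had 29.9 FPKM in OE against 44.2 in WT. For APAF1 (1.56 FPKM in OE, 1.25 in WT) and DHX36 (1.48 in OE, 1.28 in WT) the intervals of the ratio, 0.928 to 1.70 and 0.759 to 1.77, included 1. KMT2A stood at 1.61 FPKM in OE against 1.23 in WT. Over the 10 measured of 13 AVEN partners, AVEN included, 4 were above 0 and 6 below, with a median of -0.13.

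Apoptosis genes were split on both sides of the BCL2 family. Of 3 measured survival members, MCL1 was higher (35.3 FPKM in OE, 28.9 in WT) and BCL2L2 stood at 9.74 FPKM in OE against 8.58 in WT, beside the lower BCL2L1. Of 11 measured death-promoting members, 5 were above 0 and 6 below. BAX, which opens the mitochondrial outer membrane, stood at 12.2 FPKM in OE against 21.6 in WT, 1.77-fold lower (1.46 to 2.15), and BID, which links death receptors to mitochondria, at 7.72 FPKM in OE against 11.1 in WT. BNIP3L, a mitophagy receptor, had 8.53 FPKM in OE against 4.85 in WT, 1.76-fold higher (1.40 to 2.22). Among 16 measured caspases and inhibitors 7 were above 0 and 9 below. CASP2 stood at 5.59 FPKM in OE against 10.3 in WT. The inflammatory caspase gene CASP4 stood at 2.34 FPKM in OE against 1.16 in WT.

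Around MYC itself, genes of the network lay on both sides of 0. Of 11 measured genes of MYC, its partner MAX and their antagonists, 7 were above 0 and 4 below, with a median of 0.27. Among those with a mean of at least 5 FPKM the share above 0 was 20%, against 63.6% of the whole list. MAX had 6.80 FPKM in OE against 3.08 in WT, 2.21-fold higher (1.64 to 3.02). MXD4, a repressor that competes with MYC for MAX, stood at 4.76 FPKM in OE against 2.90 in WT, and shares exons with a neighbour. MLX had 17.6 FPKM in OE against 21.3 in WT.

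Genes of ribosome biogenesis and nucleotide synthesis, often listed as MYC targets, were mostly a little lower in OE. Other lists of growth genes did not follow. Translation initiation and elongation genes had 18 of 30 above 0 and 12 below, and cytosolic ribosomal protein genes 51 of 77 above and 26 below. Ribosome biogenesis genes had 36 of 40 below 0 and 4 above, with a median of -0.16. None were at least 1.5-fold apart, against 5.42% of all genes. With nuclear coding genes scaled to the same sum, 30% of this list were above 0, against 10% in the values as deposited. The share of all genes above 0 was 58.4% with that scaling. BYSL, a factor of small-subunit assembly, stood at 20.8 FPKM in OE against 29.7 in WT, and NOP16, a nucleolar protein, at 19.9 FPKM in OE against 26.7 in WT. UTP15 was the highest at 2.71 FPKM in OE against 2.40 in WT. Nucleotide synthesis genes had 23 of 25 below 0, with a median of -0.12. RRM2, the ribonucleotide reductase subunit that makes DNA precursors, stood at 17.3 FPKM in OE against 42.1 in WT, 2.43-fold lower (2.19 to 2.70), and it shares exons with a neighbour. IMPDH1, of guanine nucleotide synthesis, stood at 23.1 FPKM in OE against 30.7 in WT.

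Polyamine genes lay on both sides of 0, and of the 9 measured 3 were above and 6 below, with a median of -0.08. Corrected for GC content, length and mean FPKM, 6 were above 0. SAT1, which acetylates polyamines for export and breakdown, had 241 FPKM in OE against 99.5 in WT, 2.42-fold higher (2.29 to 2.57). OAZ2, an antizyme that sends ornithine decarboxylase to the proteasome, stood at 11.99 FPKM in OE against 5.54 in WT, 2.16-fold higher (1.80 to 2.61). At the low end SRM, spermidine synthase, stood at 39.2 FPKM in OE against 65.9 in WT, 1.68-fold lower (1.51 to 1.87), and AMD1, which supplies its aminopropyl donor, at 4.45 FPKM in OE against 7.30 in WT.

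Genes of DNA replication and mitosis were lower as lists. In the G1/S and replication list 36 of 40 were below 0, with a median of -0.22, against 48.3% of all genes. ORC6, of the origin recognition complex, stood at 4.41 FPKM in OE against 9.43 in WT, 2.14-fold lower (1.69 to 2.72), and the helicase subunit MCM5 at 27.5 FPKM in OE against 38.9 in WT. POLA1, of the primase complex, was the highest, at 6.64 FPKM in OE against 5.48 in WT. In the mitosis list 35 of 41 were below 0, with a median of -0.18. The proliferation marker MKI67 had 13.7 FPKM in OE against 25.4 in WT, 1.85-fold lower (1.74 to 1.98). FOXM1, a factor that drives mitotic genes, stood at 18.2 FPKM in OE against 30.0 in WT. CDC25B and ECT2 were above 0, at 0.20 and 0.24.

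Cyclin and checkpoint genes pointed both ways. CCND3, a D cyclin, had 3.28 FPKM in OE against 8.27 in WT, 2.52-fold lower (1.90 to 3.37). CCNG1, a cyclin induced by p53, stood at 31.1 FPKM in OE against 13.5 in WT, 2.31-fold higher (1.98 to 2.68), and CCNG2, an atypical cyclin of resting cells, at 3.67 FPKM in OE against 1.89 in WT. Of 27 measured p53 targets 13 were above 0 and 14 below, with a median of -0.01. GDF15, a stress cytokine, stood at 104 FPKM in OE against 58.1 in WT, while BAX and SESN1 (1.23 FPKM in OE, 2.50 in WT) were the lowest. DNA damage and repair genes had 14 of 36 above 0 and none at least 1.5-fold apart, against 5.42% of all genes. Histone genes reached the filter for 6 of 25, with 4 below 0 and a median of -0.51, the lowest of the lists. Many histone mRNAs lack a poly(A) tail, so a poly(A) library samples them poorly.

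Lists of protein and energy machinery stood lower by small steps. Mitochondrial ribosomal protein genes had 66 of 72 below 0, with a median of -0.20. MRPL10 stood at 21.5 FPKM in OE against 54.7 in WT, 2.54-fold lower (2.30 to 2.82), and MRPL43 at 6.19 FPKM in OE against 15.6 in WT, 2.53-fold lower (2.03 to 3.17); MRPL49, described above, was the highest of the 6 above 0, at 1.76. Proteasome genes had 33 of 36 below 0, with a median of -0.22. None were at least 1.5-fold apart, against 5.42% of all genes. PSMA4 stood at 15.4 FPKM in OE against 23.0 in WT, and PSMB5 at 92.0 FPKM in OE against 81.5 in WT. Nuclear genes of oxidative phosphorylation had 41 of 47 below 0, with a median of -0.11. NDUFB9, of complex I, stood at 29.03 FPKM in OE against 47.2 in WT, 1.63-fold lower (1.46 to 1.80). Genes of pyruvate dehydrogenase and the citric acid cycle had 23 of 29 below 0, with a median of -0.11, while PDP1 of the same list was at 1.77. The 13 mitochondrially encoded genes had a median of 0.01, 7 above 0 and 6 below. Cytosolic ribosomal protein genes leaned the other way, with 51 of 77 above 0 and a median of 0.04. Within them RPLP0 stood at 330 FPKM in OE against 540 in WT, and RPL31 at 88.8 FPKM in OE against 58.5 in WT; many of these genes have processed copies in the genome, between which fragments may be split.

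Over the whole library short and abundant transcripts stood lower in OE than long and scarce ones. In 4 equal bins of transcript length, shortest to longest, the median difference was -0.06, -0.02, 0.02 and 0.07. In 4 equal bins of mean FPKM, lowest to highest, it was 0.07, 0.05, -0.02 and -0.08. The oxidative phosphorylation list had a median length of 817 bases and a median level of 38.1 FPKM, against 1537 bases and 5.59 FPKM over all genes. Corrected for GC content and length, its median was -0.06, with 36 of 47 below 0, and corrected for mean FPKM as well it was -0.02, with 31 below. Mitochondrial ribosomal protein genes stood at -0.17 and -0.14 after these corrections, with 64 and 60 of 72 below 0. Genes of pyruvate dehydrogenase and the citric acid cycle stood at -0.10 and -0.06, with 22 and 18 of 29 below 0. For G1/S genes the medians were -0.23 and -0.19, for proteasome genes -0.22 and -0.16, and for ribosome biogenesis genes -0.17 and -0.13. The part of length and abundance in the raw medians was not tested further.

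**Figure D3:**
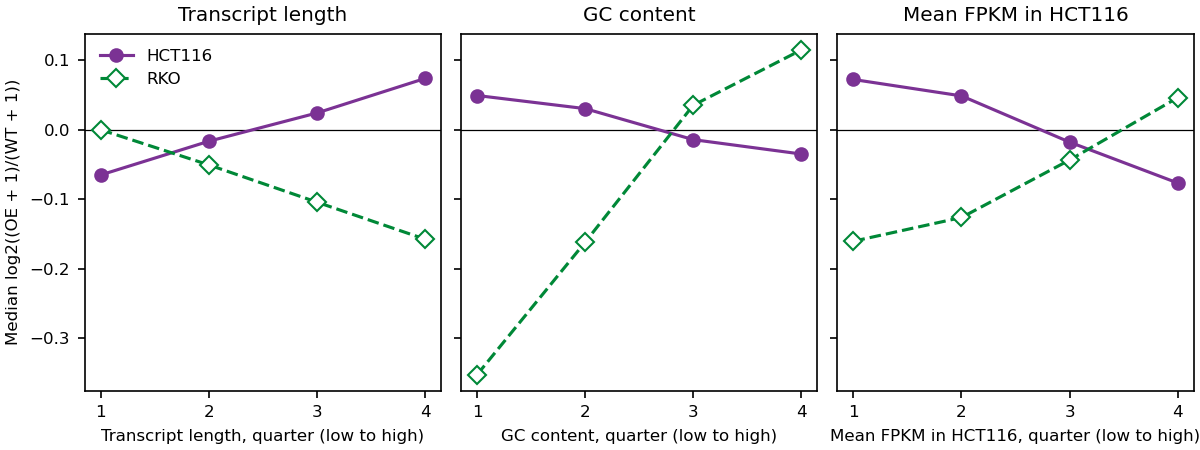
Median log2((OE + 1)/(WT + 1)) in HCT116 (filled circles) and RKO (open diamonds) in 4 equal bins of transcript length, GC content and mean FPKM in HCT116, low to high. In HCT116 the medians run from -0.06 to 0.07 with length and from 0.07 to -0.08 with FPKM; in RKO the slopes have the opposite sign, and with GC content they run from -0.35 to 0.12.

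Cytosolic heat shock genes had the most uniform shift of the lists with at least 20 measured genes. Of 24 measured chaperones and cofactors 23 were below 0, with a median of -0.23, which was also -0.23 once corrected for GC content and length and -0.17 once corrected for mean FPKM too. HSPA1A, the inducible HSP70, stood at 59.7 FPKM in OE against 98.5 in WT, and its near-identical copy HSPA1B at 114 FPKM in OE against 178 in WT; fragments of these genes can be assigned to either. The small heat shock protein gene HSPB1 had 157 FPKM in OE against 187 in WT. TCP1, of the chaperonin ring, was the exception at 64.9 FPKM in OE against 57.0 in WT. Genes of folding in the endoplasmic reticulum did not follow, with 14 of 22 above 0 and a median of 0.07.

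Hypoxia targets had the highest median of the lists in the values as deposited. These are genes that the factor HIF, which is stabilised when oxygen is low, is known to induce, and 19 of 21 measured were above 0, with a median of 0.36. At least a 1.5-fold difference was seen for 6 of 21, all higher, against 2.88% of all genes. This list, like the others, was chosen with earlier results of these data known. DDIT4, an inhibitor of the growth kinase mTORC1, stood at 84.6 FPKM in OE against 31.0 in WT, 2.73-fold higher (2.48 to 3.003). ANGPTL4, a secreted inhibitor of lipoprotein lipase, had 7.28 FPKM in OE against 3.19 in WT, 2.28-fold higher (1.70 to 3.08). P4HA1, which hydroxylates collagen, stood at 12.8 FPKM in OE against 7.19 in WT, 1.77-fold higher (1.55 to 2.04). Below 0 were P4HA2, at 4.18 FPKM in OE against 4.80 in WT, and TFRC, at 18.3 FPKM in OE against 18.7 in WT. Corrected for GC content and length, the median was 0.33, with 18 of 21 above 0. Corrected for mean FPKM as well it was 0.26, with 19 above 0, and it then stood below the ERK feedback and WNT lists described further on, at 0.30 and 0.28.

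The promoters of heat shock and hypoxia genes are shown because these lists had medians of opposite sign, few members against that sign, and a known DNA element each. Sequences are RefSeq, GRCh38.p14, and cover the 250 bases before the annotated start, on the strand of the gene. Capitals mark ACGTG or its reverse complement CACGT, the core of the element that HIF binds, and GAANNTTC, the inverted repeat that heat shock factors bind. For each list the 3 genes with the largest difference in the list's direction and a match are shown. DDIT4 is chr10:72273674-72273923 (plus), ANGPTL4 chr19:8363905-8364154 (plus) and P4HA1 chr10:73096867-73097116 (minus). HSPA1A is chr6:31815293-31815542 (plus), HSPA1B chr6:31827488-31827737 (plus) and HSPB1 chr7:76302423-76302672 (plus).
DDIT4: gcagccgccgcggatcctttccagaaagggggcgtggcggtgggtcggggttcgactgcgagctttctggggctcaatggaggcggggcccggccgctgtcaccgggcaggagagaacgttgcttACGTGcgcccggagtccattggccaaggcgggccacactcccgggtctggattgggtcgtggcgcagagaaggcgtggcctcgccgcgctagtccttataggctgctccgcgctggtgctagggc
ANGPTL4: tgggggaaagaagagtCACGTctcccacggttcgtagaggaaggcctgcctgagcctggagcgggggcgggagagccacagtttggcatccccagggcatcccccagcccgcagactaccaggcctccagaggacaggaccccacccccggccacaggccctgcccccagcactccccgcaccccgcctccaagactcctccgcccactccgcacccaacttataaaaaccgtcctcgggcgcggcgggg
P4HA1: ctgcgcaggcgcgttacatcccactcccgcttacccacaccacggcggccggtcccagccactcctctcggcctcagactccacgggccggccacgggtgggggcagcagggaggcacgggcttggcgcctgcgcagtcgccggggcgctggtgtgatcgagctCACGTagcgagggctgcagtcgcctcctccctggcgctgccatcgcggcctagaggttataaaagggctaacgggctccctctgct
HSPA1A: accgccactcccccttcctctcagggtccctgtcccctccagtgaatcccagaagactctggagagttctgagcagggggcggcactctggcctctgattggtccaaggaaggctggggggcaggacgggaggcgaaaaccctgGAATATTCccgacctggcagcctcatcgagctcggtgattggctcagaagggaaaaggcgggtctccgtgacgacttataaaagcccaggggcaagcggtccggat
HSPA1B: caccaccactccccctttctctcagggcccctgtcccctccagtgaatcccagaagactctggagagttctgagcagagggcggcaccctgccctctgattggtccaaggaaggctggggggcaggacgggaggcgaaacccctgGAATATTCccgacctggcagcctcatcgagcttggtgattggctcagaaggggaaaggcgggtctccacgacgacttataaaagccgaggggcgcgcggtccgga
HSPB1: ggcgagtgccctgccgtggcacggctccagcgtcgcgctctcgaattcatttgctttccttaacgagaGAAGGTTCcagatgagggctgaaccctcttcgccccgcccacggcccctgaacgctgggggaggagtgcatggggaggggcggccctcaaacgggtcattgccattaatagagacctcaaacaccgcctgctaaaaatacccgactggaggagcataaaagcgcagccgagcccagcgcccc
In these windows the match began 125 bases before the start in DDIT4, 234 in ANGPTL4, 86 in P4HA1, 106 in HSPA1A, 105 in HSPA1B and 182 in HSPB1.

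Windows of this length were found for 8131 of 10056 genes by symbol. ACGTG, on either strand, was present in 11 of 17 hypoxia windows (64.7%), against 24.4% of the windows of all genes compared and 18.7% of all RefSeq windows. GAANNTTC, which reads the same on both strands, was present in 8 of 22 heat shock windows (36.4%), against 3.66% and 5.85%. CACGTG, the E-box that MYC and MAX bind, contains ACGTG, and it was present in 3 of 33 ribosome biogenesis windows (9.09%), against 9.27% and 6.49%. Among genes at least 2-fold higher in OE it was present in 4 of 69 windows (5.8%), and among those at least 2-fold lower in 7 of 55 (12.7%). ACGTG was present in 15 of the 69 higher (21.7%) and in 19 of the 55 lower (34.5%), against 24.4% of all genes compared. The shares of the lists count every listed gene with a window, whatever its difference, so they do not speak of OE against WT. A match is only a run of letters, and no binding was measured.

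Glycolysis genes overlap with hypoxia targets in their control but were split here in the values as deposited. Of 23 measured 12 were above 0 and 11 below, with a median of 0.07. Corrected for GC content and length, 14 were above 0 and 9 below, with a median of 0.05. Corrected for mean FPKM as well, 16 were above and 7 below, with a median of 0.07. PFKFB3, which makes an activator of glycolysis, stood at 9.04 FPKM in OE against 3.65 in WT, 2.48-fold higher (2.03 to 3.05), and HK2, a hexokinase, at 6.35 FPKM in OE against 3.33 in WT. PGAM1 and TPI1, further enzymes of the chain, had 180 and 193 FPKM in OE against 248 and 225 in WT. ATF4 targets, genes of the amino acid stress response, had 16 of 18 above 0 and a median of 0.14. ASNS, asparagine synthetase, stood at 35.3 FPKM in OE against 18.4 in WT and shares exons with a neighbour, and DDIT4 belongs to this list as well. TRIB3, a pseudokinase of the same response, was level, at 15.3 FPKM in OE against 15.3 in WT.

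**Figure D4:**
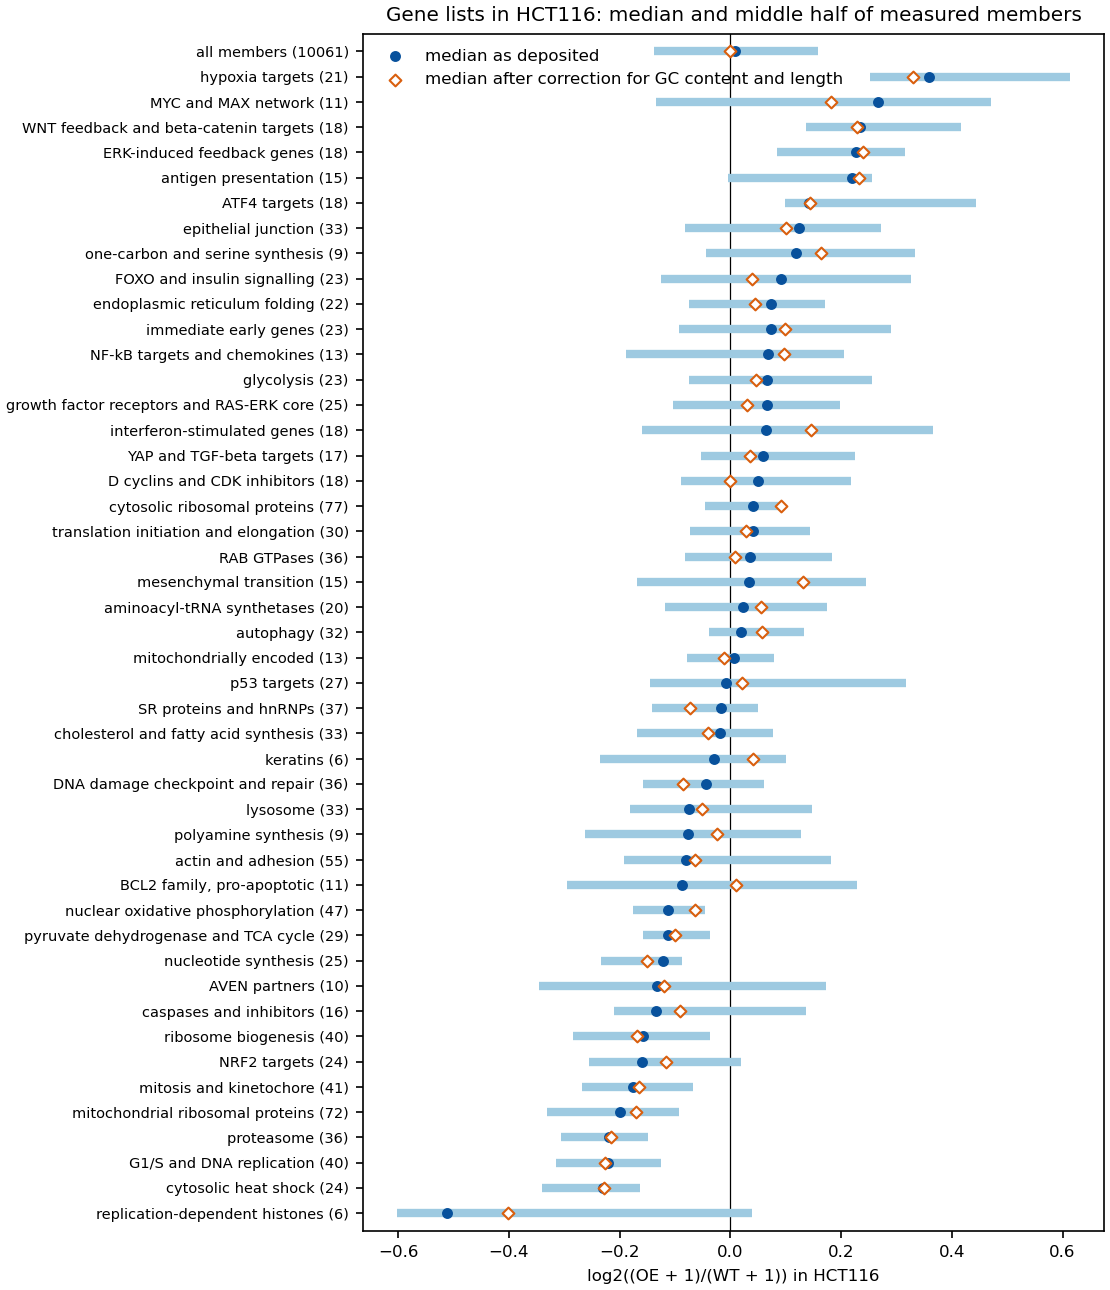
List medians of log2((OE + 1)/(WT + 1)) in HCT116, for lists with at least 5 measured genes (filled circles), the range from the lower to the upper quartile (bars) and the median corrected for GC content and length (open diamonds), with the number measured in brackets. Hypoxia targets stand highest at 0.36, the 6 histone genes lowest at -0.51, heat shock and replication lists lie near -0.2, and all genes together lie at 0.01.

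ERK feedback genes stood higher, led by a pair of strong members. Of 18 measured 14 were above 0, with a median of 0.23. Beside SPRY4, DUSP6, the phosphatase that switches ERK off, had 64.2 FPKM in OE against 30.8 in WT, 2.08-fold higher (1.93 to 2.25). PHLDA1 and FOSL1 were lower, at 26.3 and 25.9 FPKM in OE, against 41.3 and 31.9 in WT. Upstream, the 25 measured receptor and RAS-ERK genes had a median of 0.07. EGFR stood at 5.77 FPKM in OE against 3.76 in WT, while HRAS stood at 15.99 FPKM in OE against 27.3 in WT. The EGF receptor ligand gene AREG, amphiregulin, stood at 139 FPKM in OE against 186 in WT.

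Immediate early genes, which are switched on within minutes of a growth signal, had 13 of 23 above 0 and a median of 0.07. IER2 stood at 80.9 FPKM in OE against 33.2 in WT, 2.44-fold higher (2.29 to 2.60), and KLF6, a zinc-finger factor, at 7.55 FPKM in OE against 2.48 in WT, 3.05-fold higher (2.41 to 3.88). KLF4, a factor of epithelial differentiation, was the lowest of the list, at 5.37 FPKM in OE against 7.11 in WT.

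WNT feedback and beta-catenin targets had 15 of 18 above 0 and a median of 0.23. HCT116 is known to carry an activating beta-catenin mutation. DKK1, a secreted WNT inhibitor, stood at 183 FPKM in OE against 67.7 in WT, 2.71-fold higher (2.52 to 2.90), and SOX4, a transcription factor, at 45.3 FPKM in OE against 20.7 in WT, 2.19-fold higher (2.09 to 2.30). MYC, also a target of this pathway, and TCF7, at 2.11 FPKM in OE against 3.92 in WT, were the lowest of the list.

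Epithelial junction genes held 3 of 33 that were at least 2-fold higher, against 0.845% of all genes, and 0 that were 2-fold lower, against 0.755%. Above 0 were 21 of 33 (63.6%), against 51.7% of all genes, with a median of 0.12. Beside CLDN4, EVPL, a plakin that anchors keratins, had 7.39 FPKM in OE against 2.51 in WT, 2.94-fold higher (2.50 to 3.48). CDH1, E-cadherin of adherens junctions, stood at 17.5 FPKM in OE against 8.25 in WT, 2.12-fold higher (1.87 to 2.42). OCLN and SPINT2 were the lowest, at 1.27 and 46.4 FPKM in OE, against 1.81 and 58.4 in WT. Of the mesenchymal genes 10 of 15 were above 0, a share of 66.7% that was 53.3% with quantile normalization, with S100A4 at 266 FPKM in OE against 173 in WT and CALD1 at 4.17 FPKM in OE against 2.22 in WT. Actin and adhesion genes had 4 of 55 at least 2-fold lower, against 0.755% of all genes, and 1 higher, against 0.845%, with a median of -0.08. These are DAG1, AIF1L, LASP1, CFL2 and the higher SDC3, all described above as members at either end of the comparison. The lists were chosen with earlier results of these data known, so their shares past 2-fold are no test of the lists.

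Other lists are given briefly. Antigen presentation genes had 11 of 15 above 0 and a median of 0.22, with HLA-DRA at 6.25 FPKM in OE against 3.83 in WT. NRF2 targets of the antioxidant response had 18 of 24 below 0 and a median of -0.16, and 13 of 24 were below 0 once corrected for GC content, length and mean FPKM. The list held GSR, glutathione reductase, at 34.0 FPKM in OE against 62.8 in WT, 1.85-fold lower (1.72 to 1.99), and KEAP1, the inhibitor of NRF2, at 17.6 FPKM in OE against 29.5 in WT. Cholesterol and fatty acid genes had a median of -0.02, with INSIG1, a sensor of sterols, at 5.28 FPKM in OE against 9.74 in WT. One-carbon and serine synthesis genes had 5 of 9 above 0, with PSAT1 at 87.1 FPKM in OE against 56.0 in WT. Autophagy genes had 20 of 32 above 0 with a median of 0.02, and RAB GTPases 22 of 36 with a median of 0.04, so GABARAPL1 and RAB6A stood far from the rest of their lists. Medians between -0.08 and 0.09 were found for lysosome, FOXO, translation factor, tRNA synthetase, YAP and TGF-beta, keratin, interferon, NF-kB and splicing factor lists.

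No chromosome stood apart. Medians per chromosome ran from -0.04 on chromosome 19 to 0.05 on chromosome 4, and chromosome 15, where AVEN lies, had a median of 0.02 over 302 genes. Across 10056 genes Spearman's rho of the HCT116 difference was -0.144 with GC content, 0.215 with transcript length and -0.250 with mean FPKM. These are correlations across genes of the same libraries, and genes are not replicates.

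In RKO the AVEN gap was wider, at 4.43 FPKM in RKO OE against 1.34 in RKO WT, a log2 difference of 1.22. In RKO 244 of 9590 genes were at least 2-fold apart (2.54%), 92 higher (0.959%) and 152 lower (1.58%). Of the 161, 126 reached a mean of 1 FPKM in RKO. Over the 8915 genes that reached it in both lines, 61 were at least 2-fold higher in HCT116 and 77 in RKO, and these shared 5, or 8.2% of the HCT116 list and 6.49% of the RKO list. These were AC025165, BIVM-ERCC5, CRCP, MGAT5 and ZNF24. Of these, BIVM-ERCC5 is a readthrough gene by its name, and ZNF24 reached 1 FPKM in HCT116 in OE alone. At least 2-fold lower were 65 in HCT116 and 122 in RKO, and they shared 6, or 9.23% and 4.92%, which were CFL2, DUSP3, F8A3, MED21, SOCS7 and UBE2K. Among them DUSP3 stood at 2.36 FPKM in RKO OE against 18.5 in RKO WT, and SOCS7 at 0.384 FPKM in RKO OE against 2.57 in RKO WT. In opposite directions were 12 genes higher in HCT116 and lower in RKO, or 19.7% of the HCT116 list and 9.84% of the RKO list, and 9 lower in HCT116 and higher in RKO, or 13.8% and 11.7%. MYC stood at 10.6 FPKM in RKO OE against 8.08 in RKO WT, and SPRY4 at 35.8 FPKM in RKO OE against 53.3 in RKO WT. With 1 library per group the difference between the lines was not tested.

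The same lists had other medians in RKO, where 39.7% of 9590 genes were above 0 and 60.3% below, and the median of all was -0.10. Ribosome biogenesis genes had a median of 0.11 in RKO, hypoxia targets -0.17, with 3 of 18 above 0, and mitochondrial ribosomal proteins 0.07. Heat shock genes (-0.16), mitosis genes (-0.26) and ATF4 targets (0.69) had the same sign as in HCT116. GC content moved with the RKO differences, with a rho of 0.580 across genes, against -0.144 in HCT116, and its part in these medians was not tested.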

How the data were processed

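Poly(A) RNA of HCT116 and RKO cells was sequenced in paired-end mode, per the labels' protocols. The deposited FPKM values per gene and library, the deposited fold (ratio) and log2 fold, and the p-value and q-value are the authors' own. The tools in the submitters' processing notes are HISAT2 2.0, Bowtie 0.12.2 and StringTie 1.3.0, with a mouse build, while the identifiers are human, so the build is unsettled; strand and the handling of overlapping genes are not given in the sources used here.

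Groups were taken from sample titles. The members and lists (50 lists, 1342 symbols) were chosen with earlier results of these data known. Differences were log2((OE + 1)/(WT + 1)), with a pseudocount of 1 FPKM, over protein-coding genes whose mean reached 1 FPKM. GENCODE release 29 (GRCh38) held 58394 of 60612 identifiers and gave lengths, GC content (99.95% of members) and exon sharing (at least 50 bases on the same strand). Depth was read off single-exon genes of 400 nucleotides or more, with the commonest FPKM times kilobases as 1 fragment; of low values, 33.8% (OE) and 33.4% (WT) lay within 2% of a whole fragment, against 11.8% for evenly spread values. Intervals are exact conditional (Clopper-Pearson), and fragments carry no molecular identifiers. The code was tested on simulated data.

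Named genes are AVEN, the 12 highest and 12 lowest official symbols with a mean of at least 5 FPKM (no readthrough or Y-linked gene), those with q under 0.05 in the authors' deposited table, the 10 most abundant nuclear genes and, per list, the 2 highest and 2 lowest. P4HA1 and HSPB1 come from the rule for promoters; genes shared with RKO, opposite in RKO or given as marker or pathway context were chosen after values were seen. A few genes are not reported here, though counts include them. Settings tried were pseudocounts of 0.1 and 5 FPKM, filters of 0.1 and 5 FPKM, 3 scalings, corrections for GC content, length and mean FPKM, and genes that share exons left out or summed. Python 3.11.15, pandas 2.3.3, SciPy 1.17.1 and scikit-learn 1.9.0 were used.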

Additional observations from a re-analysis of the deposited data

Results flagged for a closer look

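The genes given here, whose mean reached 5 FPKM in HCT116, differed at least 2-fold in opposite directions in HCT116 and RKO, in log2((OE + 1)/(WT + 1)). The difference between the lines was not tested, since each group has 1 library. Lower in HCT116 and higher in RKO were DAG1 (-2.85 and 1.10), SLC39A9 (-1.52 and 1.38), TSN, a nucleic acid binding protein (-1.06 and 1.53), and TMBIM6, a membrane protein that protects against BAX (-1.03 and 1.04). Higher in HCT116 and lower in RKO were DUSP6 (1.04 and -1.49), FSTL3, an activin-binding protein (1.17 and -1.31), IER2 (1.26 and -2.96), and PDP1 (1.77 and -1.02). TMBIM6 stood at 43.5 FPKM in HCT116 OE and 89.7 in HCT116 WT, and at 208 in RKO OE and 101 in RKO WT. In RKO, DAG1 reached 1 FPKM in OE alone, at 3.18 FPKM against 0.953 in RKO WT. FSTL3 reached it there in WT alone, at 3.78 FPKM against 0.934 in RKO OE. POMK, which acts on dystroglycan and was picked after its values were seen, had -1.42 in HCT116 and 1.14 in RKO; it reached 1 FPKM in WT alone in HCT116 and in OE alone in RKO.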

How the results depend on the processing

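No paired analysis was possible because each group has 1 library, and for the same reason no replicate could be left out. The number of genes at least 2-fold apart (161: 85 higher, 76 lower) was 287 (160 and 127) with a pseudocount of 0.1 FPKM, 44 (23 and 21) with 5 FPKM, 79 (39 and 40) at a mean of at least 5 FPKM, and 267 (160 higher) with nuclear coding genes scaled to the same sum. The share above 0 (51.7%) was 54.4% at a mean of at least 0.1 FPKM, 58.4% with that scaling, and 50.3% after correction for GC content, length and mean FPKM, a setting added after the data were seen. It fell below 50% at a mean of at least 5 FPKM (42.0%), with quantile normalization (48.8%), after GC and length correction (49.9%) and after centring (49.995%), which sets it there by construction. So the even split of directions rests on the setting. AVEN stood between 0.29 and 0.92 in the settings that gave it a value; at a mean of at least 5 FPKM it has none. The number of lists with a median above 0 (25 of 47) was 19 to 31. Among the named genes the direction turned for CDC42EP2 (0.11 with its partner summed, also added after the data were seen) and for 2 abundant genes near 0: HSP90AB1 (-0.16) was 0.02 with quantile normalization, and RPL8 (-0.01) was 0.04 with the scaling to the same sum, 0.098 after GC and length correction and 0.04 with mean FPKM added. Depth limits genes near 1 FPKM, AVEN among them.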

Other observations

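Among 17 long noncoding RNAs with an official symbol, no shared exon and a mean that reached 5 FPKM, 0 were at least 2-fold apart. Over the 1272 genes that are not protein-coding, at a mean of 1 FPKM or more, the share was 5.58%. NORAD, which sequesters Pumilio proteins, stood at 26.8 FPKM in OE against 19.4 in WT, and GAS5, a host of small nucleolar RNAs, at 27.9 FPKM in OE against 21.2 in WT. At the other end, ELFN1-AS1 had 9.06 FPKM in OE against 13.1 in WT, and AGAP2-AS1 6.68 FPKM in OE against 9.26 in WT. ABALON, an antisense RNA at the BCL2L1 locus, had 8.75 FPKM in OE against 6.59 in WT, a sign opposite to that of BCL2L1. Strand was not given in the sources used here, so fragments of an antisense RNA and of its partner cannot be told apart where they overlap.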
